A study of Homo sapiens with 6 samples.

Results

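YAP1 and WWTR1 encode the transcriptional co-activators YAP and TAZ, TEAD1, TEAD2, TEAD3 and TEAD4 encode the DNA-binding factors that carry them to chromatin, and VGLL1, VGLL3 and VGLL4 encode vestigial-like cofactors that bind the same TEAD proteins. These 9 genes were taken by symbol from a count table of 23459 genes in MCF10A, a human mammary epithelial line that is immortal but not transformed, and all 9 had a row. Cells had received 20 nM siRNA by lipofection, with either a non-targeting control (siCtrl, 3 libraries) or siRNA directed at YAP and TAZ (siYAP/TAZ, 3 libraries). All 6 libraries carry "WT" in their descriptions and come from 1 cell line grown with horse serum, insulin, hydrocortisone, cholera toxin and EGF. The study's methods describe its RNA-Seq libraries as biological replicates, but in a section on libraries made with another kit. Whether that covers these 3′ libraries, and the time from transfection to harvest, are not given in the sources used here. Only RNA was measured, by 3′ mRNA-Seq, which reads only the end of each polyadenylated transcript, so that CPM (counts relative to the library total) can be compared between genes without a length term.

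YAP and TAZ bind no DNA themselves. In the Hippo pathway the kinases LATS1 and LATS2 phosphorylate them, 14-3-3 proteins hold the phosphorylated forms in the cytoplasm and ubiquitin ligases mark them for degradation, and what reaches the nucleus binds TEAD factors at enhancers and promoters, often next to AP-1 sites. VGLL proteins bind TEADs through a short motif of their own, and VGLL4 is known as a competitor of YAP for TEAD binding. In mammary epithelial cells the pathway is best known for linking cell density and tension to growth genes such as CCN1 and CCN2.

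On the group, the labels contradict each other for 2 of the 6 libraries. Groups and replicate numbers here follow the sample description, which is also the column name. Under it, siCtrl replicate 2 has a title and a genotype field naming the YAP/TAZ siRNA. For siYAP/TAZ replicate 2 the title and the genotype field name the control. The replicate numbers differ too. In the titles siCtrl replicates 2 and 3 are numbered 1 and 2, and siYAP/TAZ replicates 1 and 2 are numbered 2 and 3. Library totals ran from 3175149 to 4317286 counts, and a count of 0 allows up to 3 counts, or 0.695 to 0.945 CPM, which covers counting error only. On the first principal component (48.4% of the variance) siCtrl replicate 2 lay at 7.15, away from siCtrl replicates 1 and 3 at -42.6 and -34.9 and below the siYAP/TAZ libraries at 9.77 to 33.7. The 7 basal mammary and general epithelial markers (KRT5, KRT14, KRT17, TP63, EGFR, CDH1 and EPCAM) were all detected. They summed to 1721 to 1965 CPM in siCtrl and 1449 to 1534 CPM in siYAP/TAZ, so this sum moved with the groups. Of these, TP63 went the other way, with means of 49.0 CPM in siCtrl and 73.7 CPM in siYAP/TAZ and overlapping groups. The others are not given singly here. Of 6 luminal markers 4 exceeded 3 counts in some library, and they summed to 146 to 162 and 143 to 149 CPM, with KRT19 and PGR at no more than 3 counts. Of the 4 fibroblast markers, COL1A2 and COL3A1 had 0 counts in every library and PDGFRB no more than 3. COL1A1 exceeded 3 counts in some library, and the 4 summed to at most 3.78 CPM. The 3 blood cell markers summed to at most 9.76 CPM. The 2 endothelial markers summed to 1.03 to 2.06 CPM in siCtrl and 3.47 to 9.45 CPM in siYAP/TAZ, with CDH5 at no more than 3 counts. Over genes, the counts of siCtrl replicate 2 differed less from those of siYAP/TAZ replicate 2 (chi-square per degree of freedom 9.30) than from those of siCtrl replicates 1 and 3 (18.9 and 15.3). The part of these differences in the results below was not tested.

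The start regions of the genes were searched for the core letters that TEAD factors recognise, because TEADs are members of the set and bind DNA directly. RefSeq (GRCh38.p14) gave 13 windows of 300 bases, from 250 before to 50 after a transcript start, for 7 of the 9 genes in the promoter table used here, and no window of TEAD1 or TEAD4 was analysed. The letters searched for were GGAATG. A site on the opposite strand, which reads CATTCC in the window, was counted too. Such letters occurred in 2 of the 13 windows, of YAP1 and VGLL1, and in 14% of all 35116 windows in the table. AP-1 letters, TGANTCA on either strand, occurred in 0 of the 13 windows and in 7.71% of all windows. The YAP1 window is chr11:102110197-102110496 (GRCh38.p14, plus strand, 70.7% GC) with the match beginning 162 bases before the start. The VGLL1 window is chrX:136531965-136532264 (GRCh38.p14, plus strand, 45.7% GC) with the match beginning 157 bases before the start. Both are printed 5′ to 3′ with the TEAD letters in capitals, as the only windows of the set that hold them. A match of letters is not evidence of binding, and no binding was measured in these libraries.
YAP1: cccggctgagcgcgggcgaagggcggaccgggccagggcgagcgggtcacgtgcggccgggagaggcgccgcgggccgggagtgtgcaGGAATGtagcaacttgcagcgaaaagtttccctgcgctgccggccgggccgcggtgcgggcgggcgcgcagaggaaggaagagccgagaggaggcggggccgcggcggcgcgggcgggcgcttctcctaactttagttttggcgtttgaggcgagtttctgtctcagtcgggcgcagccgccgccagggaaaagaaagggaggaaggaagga
VGLL1: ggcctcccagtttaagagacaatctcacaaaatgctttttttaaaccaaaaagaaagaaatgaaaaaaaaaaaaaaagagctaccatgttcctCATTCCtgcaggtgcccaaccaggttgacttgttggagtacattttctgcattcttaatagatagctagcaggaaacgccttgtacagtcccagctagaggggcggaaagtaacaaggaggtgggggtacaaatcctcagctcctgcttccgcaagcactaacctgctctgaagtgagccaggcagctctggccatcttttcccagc

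The co-activator transcripts were the members that fell, each to about 60% of its siCtrl level. YAP1 (Entrez gene 10413, on the plus strand of GRCh37 chromosome 11 from 101981178 to 102104155) had counts of 657, 660 and 837 with the control siRNA and of 514, 357 and 411 with siYAP/TAZ. Scaled by TMM, a library size correction, its levels were 189, 204 and 210 CPM against 116, 118 and 112 CPM, and every siYAP/TAZ library was below every siCtrl library. The means were 201 ± 11.1 and 115 ± 3.25 CPM (SD, n = 3). The quasi-likelihood test of edgeR put the log2 fold change at -0.80 (SE 0.12, 95% interval -1.07 to -0.53, Benjamini-Hochberg adjusted p 0.0138). In the order of all tested genes by p, YAP1 stood at rank 58, and 8.18% of them had a larger change in either direction.

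WWTR1 (Entrez gene 25937, on the minus strand of GRCh37 chromosome 3 from 149235022 to 149454501), the gene for TAZ, was expressed at a lower level than YAP1 in every library. It had counts of 379, 352 and 405 with the control siRNA and of 311, 203 and 220 with siYAP/TAZ, which is 109, 109 and 102 CPM against 70.5, 67.1 and 59.8 CPM. Again the groups did not overlap. The means were 106 ± 4.02 and 65.8 ± 5.44 CPM (SD, n = 3), and edgeR put the log2 fold change at -0.69 (SE 0.13, 95% interval -0.98 to -0.40, adjusted p 0.0311). WWTR1 stood at rank 145 by p.

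Both genes are what the siRNAs target, so their fall is the check of the labels. siCtrl replicate 2 was at the siCtrl level for both and siYAP/TAZ replicate 2 at the siYAP/TAZ level, in keeping with their descriptions and not their titles or genotype fields. In bulk RNA, fewer cells with a transcript and less of it in each cell cannot be told apart, and the 57.5% of YAP1 and 61.8% of WWTR1 that remained are averages over the culture. Over 15 alternative fits YAP1 passed the threshold in 11 and WWTR1 in 9. With the replicate number as a block the edgeR adjusted p was 0.00186 for YAP1 and 0.00505 for WWTR1. By DESeq2 it was 4.57e-05 and 0.00422. The calls nevertheless rested on few libraries. Leaving out siCtrl replicate 3 took the adjusted p to 0.0988 for YAP1 and 0.135 for WWTR1. When siYAP/TAZ replicate 2 was left out these were 0.0606 and 0.107, and when siYAP/TAZ replicate 3 was left out they were 0.112 and 0.176. WWTR1 alone also missed the threshold after removal of siCtrl replicate 1 (0.0928) or of siYAP/TAZ replicate 1 (0.0602). The sizes moved little in those fits and all others by description, where YAP1 stayed between -0.84 and -0.77 and WWTR1 between -0.75 and -0.62 (log2 fold change). Grouped by title instead, the log2 fold changes were -0.26 and -0.22 with adjusted p of 0.904 and 0.905.

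**Figure D1:**
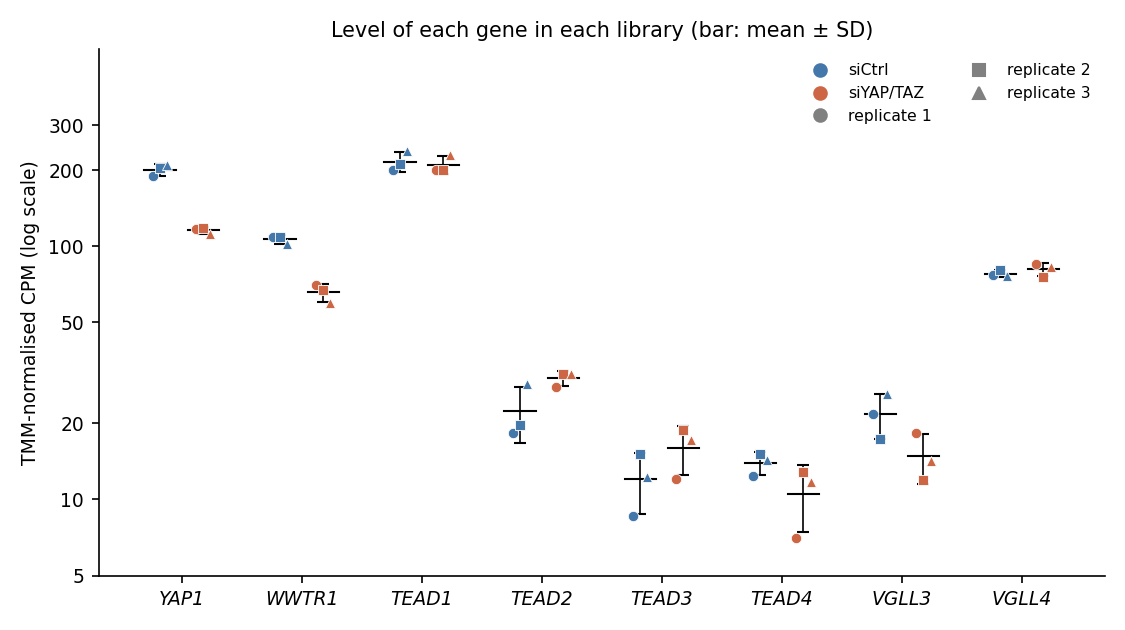
TMM-normalised CPM (log axis) of the 8 members with enough counts to test, in 3 siCtrl (blue) and 3 siYAP/TAZ (orange) libraries. Point shape gives the replicate, bars the mean ± SD. YAP1 and WWTR1 are the genes whose groups do not overlap, and TEAD1 sits near 200 CPM in both groups.

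Of the 8 members tested, 2 passed the threshold, which is 25%, against 1.96% of the 12510 genes tested (1.22% lower and 0.743% higher in siYAP/TAZ). Both are siRNA targets, and 0 of the other 6 members passed. By edgeR 1 of those 6, VGLL3, had an unadjusted p under 0.05, as had 2211 of the 12510 genes tested. By DESeq2 0 of the 6 passed the threshold, where 4.35% of 13301 genes did. Groups that do not overlap, with siYAP/TAZ lower, were found for 2 of 8 members and for 11.1% of all genes tested. The median log2 fold change was -0.23 over the 8 tested members, 0.18 over the 4 TEAD genes and -0.00093 over all tested genes.

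TEAD1 was the most abundant of the 9 genes in both groups and is the TEAD that accounts for most of the family's reads here. It (Entrez gene 7003, on the plus strand of GRCh37 chromosome 11 from 12695968 to 12966284) had counts of 699, 682 and 944 with the control siRNA and of 883, 608 and 842 with siYAP/TAZ, or 201, 210 and 237 CPM against 200, 201 and 229 CPM. The groups overlapped almost fully. The means were 216 ± 18.9 and 210 ± 16.4 CPM (SD, n = 3), and edgeR put the log2 fold change at -0.042 (SE 0.13, adjusted p 0.900). The 95% interval of the fold, 0.794 to 1.19, lies above the whole interval for YAP1, 0.478 to 0.691, and for WWTR1, 0.507 to 0.756, although the difference between genes was not itself tested. Its sign turned to a log2 fold change of 0.030 without siCtrl replicate 3 and to 0.00096 with the groups of the titles.

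TEAD2, TEAD3 and TEAD4 were far below TEAD1 in every library, and none passed the threshold. TEAD2 (Entrez gene 8463, on the minus strand of GRCh37 chromosome 19 from 49843852 to 49865714), best known from early embryos, had counts of 64, 64 and 114 with the control siRNA and of 123, 95 and 115 with siYAP/TAZ. In CPM these are 18.4, 19.7 and 28.6 against 27.9, 31.4 and 31.3, so siCtrl replicate 3 alone reached into the siYAP/TAZ range. By edgeR the log2 fold change was 0.43 (SE 0.21, 95% interval -0.035 to 0.90, adjusted p 0.316), and without siCtrl replicate 3 it was 0.66, also not past the threshold.

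TEAD3 (Entrez gene 7005, on the minus strand of GRCh37 chromosome 6 from 35441374 to 35464856), known from placenta, had counts of 30, 49 and 49 with the control siRNA and of 53, 57 and 63 with siYAP/TAZ, which is 8.62, 15.1 and 12.3 against 12.0, 18.8 and 17.1 CPM. Within both groups replicate 1 was the lowest library, and the groups overlapped. By edgeR the log2 fold change was 0.40 (SE 0.28, 95% interval -0.22 to 1.03, adjusted p 0.493).

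TEAD4 (Entrez gene 7004, on the plus strand of GRCh37 chromosome 12 from 3068496 to 3149842), which is needed for the trophectoderm of the early embryo, had counts of 43, 49 and 57 with the control siRNA and of 31, 39 and 43 with siYAP/TAZ, or 12.3, 15.1 and 14.3 against 7.03, 12.9 and 11.7 CPM. Here too replicate 1 was the lowest of each group. By edgeR the log2 fold change was -0.42 (SE 0.28, 95% interval -1.04 to 0.20, adjusted p 0.468). At these depths the counting error alone was 14.2% of the mean for TEAD4 and 15.3% for TEAD3 in a siCtrl library, against 3.59% for TEAD1. A fold between 0.487 and 1.15 for TEAD4, between 0.856 and 2.05 for TEAD3 and between 0.976 and 1.86 for TEAD2 lies inside the 95% intervals, and that of TEAD4 includes a fall of the size seen for YAP1.

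Summed, the 4 TEAD genes came to 240, 260 and 293 CPM against 247, 264 and 289 CPM, and the means of 264 ± 26.4 and 267 ± 21.2 CPM (SD, n = 3) differed by less than the spread between libraries. TEAD1 made up 81.8% ± 1.54 of the TEAD counts in siCtrl and 78.8% ± 2.49 in siYAP/TAZ (SD, n = 3), with overlapping groups. The share of TEAD2 was 8.34% ± 1.26 in siCtrl and 11.3% ± 0.537 in siYAP/TAZ, and the share of TEAD4 was 5.28% ± 0.470 and 3.92% ± 1.02 (SD, n = 3). For both of these the groups did not overlap, with TEAD2 higher and TEAD4 lower in siYAP/TAZ. TEAD3 stood at 4.53% ± 1.14 and 5.97% ± 1.14, with overlap. Shares of 1 sum are tied to each other, and an exact two-sided permutation test of 3 against 3 libraries cannot go below p = 0.10, the value it gave for TEAD2 and for TEAD4.

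The VGLL genes covered the whole range from no reads to a level near that of WWTR1. VGLL1 (Entrez gene 51442, on the plus strand of GRCh37 chromosome X from 135614374 to 135638966) had 0 counts in 5 libraries and 1 count in siYAP/TAZ replicate 2. That is under the limit a count of 0 allows in both groups, so no fold is given and the gene was not tested. VGLL2, a relative known from skeletal muscle that is not among the 9 genes, had 0 counts in all 6 libraries.

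VGLL3 (Entrez gene 389136, on the minus strand of GRCh37 chromosome 3 from 86925538 to 87040299), a TEAD-binding cofactor, had counts of 76, 56 and 104 with the control siRNA and of 81, 36 and 52 with siYAP/TAZ. In CPM its levels were 21.8, 17.3 and 26.1 against 18.4, 11.9 and 14.1, and siCtrl replicate 2 was below siYAP/TAZ replicate 1. The means were 21.7 ± 4.43 and 14.8 ± 3.28 CPM (SD, n = 3), and edgeR put the log2 fold change at -0.55 (SE 0.24, 95% interval -1.09 to -0.00068). The unadjusted p was 0.0498 and the adjusted p 0.282 by edgeR, so VGLL3 did not pass. Its adjusted p was 0.131 with the replicate number as a block and 0.0862 without siCtrl replicate 2, the lowest of its alternatives.

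VGLL4 (Entrez gene 9686, on the minus strand of GRCh37 chromosome 3 from 11597543 to 11812824), the TEAD-binding competitor of YAP, had counts of 268, 261 and 303 with the control siRNA and of 375, 228 and 305 with siYAP/TAZ. These are 77.0, 80.5 and 76.1 against 85.0, 75.4 and 83.0 CPM, with overlapping groups. By edgeR the log2 fold change was 0.060 (SE 0.13, 95% interval -0.22 to 0.34, adjusted p 0.845), and the fold interval of 0.858 to 1.27 lies above those of both YAP1 and WWTR1. The last bases of VGLL4 overlap ATG7 on the opposite strand, and whether strand was used in counting is not stated, so reads of the 2 genes there cannot be told apart. ATG7 had counts of 455, 380 and 493 with the control siRNA and of 455, 359 and 375 with siYAP/TAZ.

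**Figure D2:**
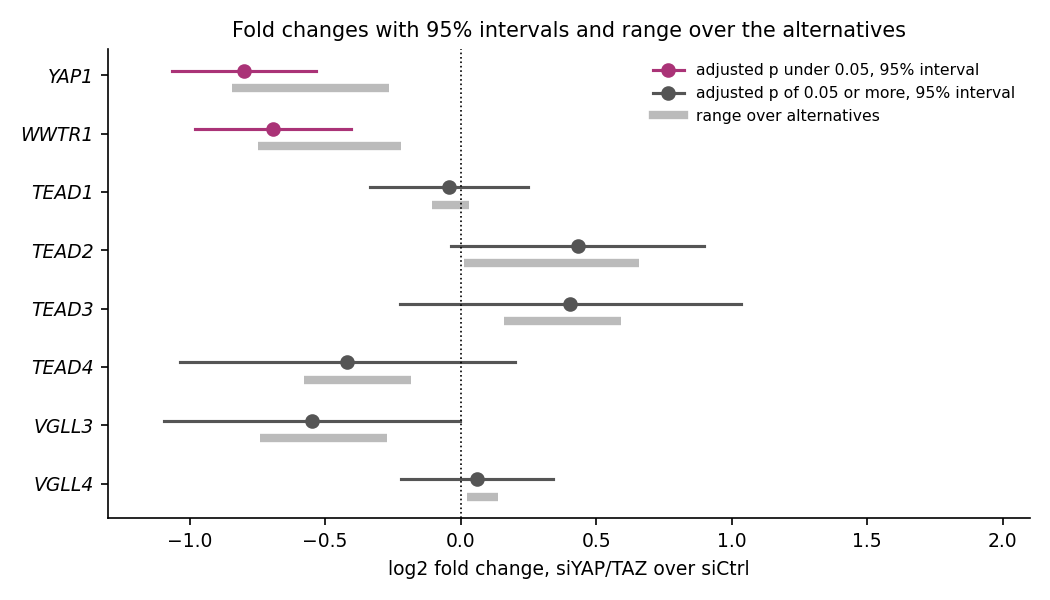
log2 fold change of siYAP/TAZ over siCtrl for the 8 tested members (x axis). Points and thin lines are the edgeR estimate and its 95% interval, coloured where the adjusted p was under 0.05, and grey bars span the alternatives, grouping by title included. YAP1 and WWTR1 lie at -0.80 and -0.69 with intervals clear of 0, and the intervals of the other 6 reach 0 or end just short of it (VGLL3, -0.00068).

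Ordered by mean CPM in siCtrl, the genes ran from TEAD1 through YAP1, WWTR1, VGLL4, TEAD2, VGLL3, TEAD4 and TEAD3 to VGLL1. The library ranges of TEAD1 and YAP1 overlapped in siCtrl, as did those of TEAD2 and VGLL3 and those of TEAD4 and TEAD3, so the means of these neighbours were not ordered beyond their spread. Within each siCtrl library TEAD1 nonetheless had more counts than YAP1, which was 0.940, 0.968 and 0.887 times TEAD1. WWTR1 lay above VGLL4 in every siCtrl library, and VGLL4 lay above WWTR1 in every siYAP/TAZ library. In siYAP/TAZ the order was TEAD1, YAP1, VGLL4, WWTR1, TEAD2, TEAD3, VGLL3, TEAD4 and VGLL1. TEAD1 and YAP1, which overlapped in siCtrl, were then apart, at 200 to 229 and 112 to 118 CPM.

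Ratios of raw counts inside a library need no scaling between libraries. YAP1 exceeded WWTR1 by 1.73, 1.88 and 2.07 times in siCtrl and by 1.65, 1.76 and 1.87 times in siYAP/TAZ, with overlapping groups (exact two-sided permutation test, p = 0.40). In each of the 3 pairs of libraries with the same replicate number the siYAP/TAZ ratio was the lower one, and the paired difference was not tested. YAP1 and WWTR1 together were 1.24, 1.20 and 1.07 times the TEAD sum in siCtrl and 0.757, 0.701 and 0.594 times in siYAP/TAZ. In every siCtrl library co-activator counts exceeded TEAD counts, and in every siYAP/TAZ library they were fewer. The means were 1.17 ± 0.0901 and 0.684 ± 0.0830 (SD, n = 3), at the smallest p that the exact permutation test allows, 0.10. VGLL4 was 0.259, 0.258 and 0.244 times the co-activator sum in siCtrl and 0.455, 0.407 and 0.483 times in siYAP/TAZ, also without overlap (exact permutation test, p = 0.10). Both of these ratios contain the siRNA targets, while the TEAD sum and VGLL4 overlapped between the groups. Their shifts therefore restate the fall of YAP1 and WWTR1 and are no separate result. For VGLL3 over VGLL4 the ratios were 0.284, 0.215 and 0.343 against 0.216, 0.158 and 0.170, and these overlapped. These are ratios of RNA counts and say nothing of protein ratios. They are 4 of 15 such sums, ratios and shares that were computed, and with 3 libraries a group none could reach p under 0.10.

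**Figure D3:**
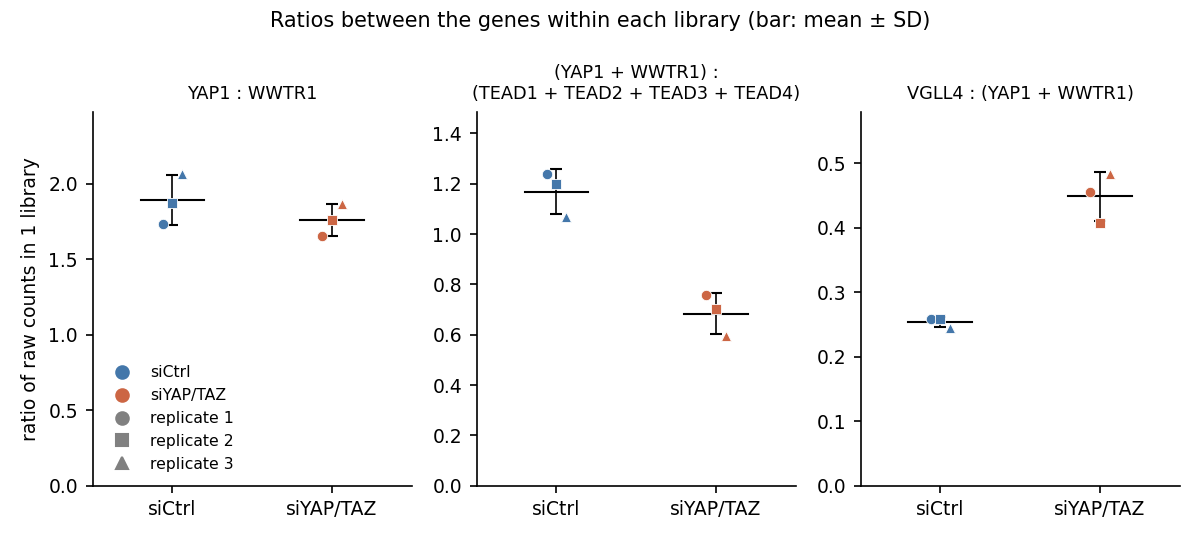
Ratios of raw counts within each library (linear axes from 0) for siCtrl (blue) and siYAP/TAZ (orange), with the replicate as point shape and bars for the mean ± SD of 3 libraries. YAP1 over WWTR1 overlaps between the groups, co-activators over TEADs goes from 1.17 to 0.684, and VGLL4 over co-activators from 0.254 to 0.448. The co-activators are the siRNA targets, so the last 2 shifts restate their fall.

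YAP1 and WWTR1 had closely similar patterns over the 6 libraries, with a Pearson r of 0.970 between their log2 CPM. Both are siRNA targets and the 6 points fall into 2 groups, so this r is a description and not a test. Among 8913 genes with a mean of at least 50 counts, WWTR1 was at rank 50 in likeness to YAP1, and YAP1 at rank 37 in likeness to WWTR1. The 5 genes most like YAP1 were DSG2, which encodes a desmosomal cadherin (r = 0.993), RPA3, EARS2, RMND5A and TRABD2A. Those most like WWTR1 were TBC1D31 (r = 0.995), CDKN3, a phosphatase of cyclin-dependent kinases, ASAP2, CCT4, a subunit of a cytosolic chaperonin, and FER, a tyrosine kinase. Of the other members VGLL3 was nearest, with r of 0.746 to YAP1 and 0.731 to WWTR1. TEAD1 had r of 0.243 and 0.0158, and TEAD2 had r of -0.685 and -0.813.

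The other genes of the pathway give the surroundings of these members. Of the 16 Hippo kinase cascade genes, all tested, 1 fell and 0 rose, where 1.22% of all tested genes fell and 0.743% rose, and the median log2 fold change was -0.18. The gene that fell is WWC1, which encodes the upstream scaffold KIBRA, at 117, 158 and 137 CPM against 64.1, 78.0 and 48.4 CPM (edgeR log2 fold change -1.11, SE 0.19, adjusted p 0.0231). Neither LATS1, at a log2 fold change of -0.27 (SE 0.15), nor LATS2, at -0.40 (SE 0.19), passed. Of 16 genes for the cytoplasmic retention and turnover of YAP and TAZ 15 were tested, 1 fell and 0 rose, with a median of -0.066. That gene is AMOTL2, an angiomotin family member that binds YAP and is also a target gene of it, at 39.1, 32.4 and 41.0 CPM against 10.4, 13.9 and 8.43 CPM. By edgeR it fell by 1.79 on the log2 scale (SE 0.22, adjusted p 0.00879). YWHAH, a 14-3-3 gene, was at 83.9, 39.2 and 64.1 CPM against 43.5, 32.1 and 44.3 CPM and did not pass (adjusted p 0.246). It passed as lower with the replicate block (0.0343, where 5.44% of all tested genes fell). Without siCtrl replicate 2 it also passed as lower (0.0133, where 6.22% of all tested genes fell). SFN, another 14-3-3 gene, had adjusted p of 0.376, 0.184 and 0.0257 in these fits.

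Of 18 other nuclear partners of YAP, TAZ and TEAD 14 were tested, and 0 passed in either direction by edgeR, with a median of 0.14. The nearest was NCOA1, a nuclear receptor co-activator, at 36.8, 34.3 and 35.4 CPM against 51.0, 61.5 and 57.4 CPM (adjusted p of 0.0513), which was named after its values were seen. With the replicate block 3 of this list passed, all higher in siYAP/TAZ, namely NCOA1, NCOA2 and TP63, where 4.66% of all tested genes passed as higher and 5.44% as lower. Without siCtrl replicate 2, NCOA1 passed as higher (adjusted p 0.0241) and RUNX2, a Runt family factor, as lower (0.0489). In that fit 6.08% of all tested genes passed as higher and 6.22% as lower.

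Of 22 YAP/TAZ-TEAD target genes 20 were tested, 4 fell (against 1.22% of all genes tested) and 0 rose, with 18 of the 20 log2 fold changes below 0 and a median of -0.63. The list was written with earlier results of these data known, so its direction is no independent evidence. CCN1 and CCN2 encode secreted matrix-associated proteins. CCN1 was at 53.1, 27.2 and 40.0 CPM against 8.39, 3.64 and 10.1 CPM (edgeR log2 fold change -2.41, SE 0.35, adjusted p 0.0138). For CCN2 the levels were 9.76, 7.10 and 13.8 CPM against 1.13, 0 and 1.63 CPM (edgeR log2 fold change -3.35, SE 0.57, adjusted p 0.0225). The others that passed were AMOTL2 and DOCK5, a Rac exchange factor, at 121, 116 and 122 CPM against 80.0, 77.0 and 77.0 CPM (edgeR log2 fold change -0.62, SE 0.12, adjusted p 0.0329). Thus CCN1, CCN2 and AMOTL2 fell by more on the log2 scale than either co-activator transcript did, while DOCK5 fell by a like amount to WWTR1. The size for CCN2 is loosely determined, as its siYAP/TAZ levels lie near the limit a count of 0 allows (0.695 to 0.945 CPM). Differences in size between genes were not tested.

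The counts of called pathway genes moved with single libraries, as the count over all genes did. With the replicate block 10 of the 20 target genes fell, against 5.44% of all tested genes, and the genes this added were CRIM1, F3, FJX1, GADD45A, MYOF and NT5E. Without siCtrl replicate 2 it was 8 of 20, where 6.22% of all tested genes passed as lower and 6.08% as higher. Over the 4 lists 5 distinct genes passed, and 9 passed by DESeq2 with all libraries, where 1.96% and 4.35% of all genes tested passed. The count was 0 when either siCtrl replicate 3 or siYAP/TAZ replicate 3 was left out. There 15 and 18 genes of the lists had an unadjusted p under 0.05, as had 1438 of all 12683 and 1351 of all 12665 genes tested. Without these libraries in turn the adjusted p was 0.119 and 0.125 for WWC1, 0.0703 and 0.0675 for AMOTL2, 0.0803 and 0.0705 for CCN1, 0.132 and 0.108 for CCN2 and 0.164 and 0.180 for DOCK5. When siYAP/TAZ replicate 1 was left out, WWC1, CCN2 and DOCK5 had 0.0597, 0.0597 and 0.0821. CCN2 and DOCK5 had 0.0602 and 0.0989 when siCtrl replicate 1 was left out, and DOCK5 had 0.130 in the fit lacking siYAP/TAZ replicate 2.

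**Figure D4:**
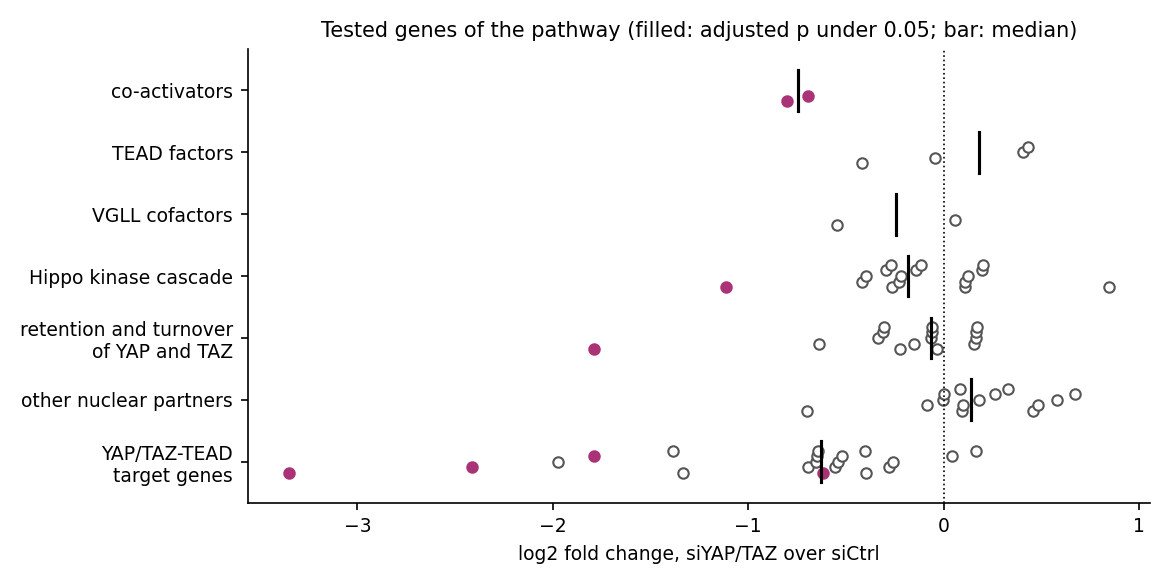
log2 fold change of siYAP/TAZ over siCtrl (x axis) for each tested gene of the 3 member groups and the 4 pathway lists (rows). Filled points had an adjusted p under 0.05 by edgeR, and bars are medians. The TEAD points lie on both sides of 0 with none filled, whereas 18 of the 20 target genes lie below 0. The target list was written with earlier results of these data known, so its direction is no independent evidence.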

How the data were processed

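The authors deposited raw counts per Entrez gene for 6 3′ mRNA-Seq libraries (QuantSeq FWD) of MCF10A cells, with no normalisation. The submitters' processing notes name cutadapt 4.2, Bowtie2 2.3.5.1 and hg19. The gene annotation and the use of strand in counting are not given in the sources used here. The table held 0 unnamed rows and 0 value columns without a sample. Symbols came from the RefSeq gene table of GRCh38.p14 (names only), which matched 23308 IDs holding 99.7% of all counts. Gene coordinates are those of GENCODE 44 lifted to GRCh37, the hg19 assembly, and promoter windows those of RefSeq on GRCh38.p14. In the final 500 bases of their transcripts, 1 of 1555 runs of 50 bases of YAP1 also occurs in the pseudogene YAP1P1 and 7 of 1751 of TEAD4 occur in TEAD3.

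Counts were tested with edgeR 4.0.16 in R 4.3.3 (quasi-likelihood F test, filterByExpr, TMM scaling, a model of group alone), and p-values were adjusted by Benjamini-Hochberg over the 12510 genes kept by the filter (99.5% of counts). An adjusted p under 0.05 was the threshold. All genes were tested together, so that no p is adjusted over the members alone. Standard errors are the absolute log2 fold change over the square root of F. CPM are TMM-normalised, and log2 CPM for likeness used a prior count of 2. Ratios used raw counts and exact two-sided permutation tests. The script was tested on simulated data with 200 changed genes. No libraries were identical, and chi-square per degree of freedom was 5.76 to 18.9 within groups and 9.30 to 28.0 between them.

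Replicate numbers come from the description field, and the titles number some of the libraries otherwise. Deviations from group means correlated across genes between libraries of the same number at r of 0.416, 0.345 and 0.129, and at -0.365 to 0.0454 for other pairs. All same-number pairs were above 0.1 and above every other pair, the third only at 0.129. The numbers may therefore mark pairs, but no label states a pairing. Deviations from a group mean are tied to each other, so these r are a description and not a test. The reported fit and the permutation tests are nevertheless unpaired, and a fit with the replicate number as a block is an alternative, given beside calls that it changes or counts that it moves by over 1.5 times.

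The comparison was repeated with the replicate block, with DESeq2 1.42.0, with robust dispersion, with RLE or library-size scaling, without the low-count filter or with a floor on the mean of 50 counts, with groups by title, without both libraries with opposite titles, and without each library in turn. Members and gene lists were chosen with earlier results of these data known. Named genes are all 9 members, VGLL2, up to 4 genes with the lowest p among those past the threshold in each pathway list, and the 5 genes most like YAP1 and most like WWTR1. LATS1, LATS2, SFN, RUNX2 and NCOA1 and the genes added by the block were named after their values were seen. Proteins and siRNA sequences were not used here.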

Additional observations from a re-analysis of the deposited data

How the results depend on the processing

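Over all genes the count past the threshold was 245. It was 578 with DESeq2, 556 with no low-count filter, 1263 with the replicate block and 1183 without both libraries that have opposite titles. Leaving out 1 library at a time gave 16 (without siCtrl replicate 3) to 1579 (without siCtrl replicate 2). With groups by title it was 0 by edgeR, with 464 genes at an unadjusted p under 0.05. The number of members called was 2 in the fit as reported and with the replicate block, 0 with groups by title, where 0 had an unadjusted p under 0.05, and 0 to 2 with 1 library left out. Where it was 0 there, 2 or 3 members had an unadjusted p under 0.05. Without siCtrl replicate 3, 1438 of all 12683 genes tested had such a p. Without siYAP/TAZ replicate 2 it was 1694 of 12828, and without siYAP/TAZ replicate 3 it was 1351 of 12665. Other pathway genes past the threshold were 5, where 1.96% of all genes tested passed. They were 9 with DESeq2 (4.35% of all genes) and 10 with no low-count filter (2.9%). With the replicate block they were 15 (10.1%), and without both libraries with opposite titles 10 (9.29%). With groups by title they were 0, where 1 had an unadjusted p under 0.05. With 1 library left out they were 0 to 13. The 13 came without siCtrl replicate 2, where 12.3% of all genes passed. They were 0 without siCtrl replicate 3 (0.126% of all genes) and without siYAP/TAZ replicate 3 (0.142%). The pairing by replicate number changed no call of a member. The direction of the log2 fold change turned in 2 cases, both of TEAD1, to 0.00096 with groups by title and to 0.030 without siCtrl replicate 3, where leaving out 1 library at a time gave -0.10 to 0.030. YAP1 was called in 11 of its 15 alternatives and WWTR1 in 9 of 15. TEAD4 was not tested with a mean of at least 50 counts. For the cases where a count or a call moved, the cause was not tested beyond the fewer libraries or other genes each alternative uses.

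At a depth of 3175149 to 4317286 counts VGLL1 could not be tested, and the counting error in a siCtrl library was 14.2% for TEAD4 and 15.3% for TEAD3. No group was large enough to test for outlying libraries.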
